A study of Mus musculus with 6 samples.

Results

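The endothelin system was followed across 6 RNA-sequencing libraries through the 7 genes that encode its ligands (Edn1, Edn2, Edn3), its receptors (Ednra, Ednrb) and its converting enzymes (Ece1, Ece2). The genes were chosen by name, and all 7 of 7 were found among the 26728 entries of the deposited table. Each was an entry with a listed mRNA length, of which the table holds 23511. The libraries came from adult, untreated C57/BL6 mice, and each tissue, carotid body or adrenal medulla, gave 3 of them. The former is the small organ at the fork of the carotid artery that senses arterial oxygen. The latter is the inner part of the adrenal gland and releases catecholamines. Per the design note, 10 mice gave the 18 carotid bodies or the 10 adrenal medullas of a pool, so every value below is that of 1 pool, n counts pools, and p-values measure the spread between pools. The tissues were taken whole, and no cell type was isolated.

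Endothelins are short peptides that are cut from longer precursors, first by furin-like proprotein convertases and then by the endothelin-converting enzymes. The A receptor, encoded by Ednra, sits mainly on vascular smooth muscle and pericytes, where it drives contraction, and it prefers endothelin-1 and endothelin-2 over endothelin-3. The B receptor, encoded by Ednrb, binds the 3 peptides about equally, releases vasodilators from endothelium, and carries the endothelin-3 signal that neural crest cells need. Endothelin-1 is known as an exciter of the carotid body, and its production there is known to increase in long-lasting hypoxia.

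The ligands differ in few residues, which are shown here because the comparison turns on which of them each tissue transcribed. The lines give the 63 coding bases of each mature peptide, 5′ to 3′, from the mouse GENCODE transcripts of build GRCm38. Capitals mark the codons whose residue differs from that of Edn1.
Edn1: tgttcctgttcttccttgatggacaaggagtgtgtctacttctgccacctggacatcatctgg
Edn2: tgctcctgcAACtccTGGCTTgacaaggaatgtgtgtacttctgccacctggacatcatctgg
Edn3: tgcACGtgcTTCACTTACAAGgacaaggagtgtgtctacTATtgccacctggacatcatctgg
Of 21 codons, 15 encode the same residue in all 3 ligands, among them the 4 cysteines that fold the peptide. Edn2 differs from Edn1 in 3 residues and Edn3 differs from Edn1 in 6, most of them near the amino end.

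The libraries held 13266225 to 16445925 reads. At 2 kb, 1 read equals 0.0304 to 0.0377 RPKM. Replicate pools differed by more than counting noise (chi-square over genes 45.7 to 172 per gene). Adrenal medulla pool 3 had 7 reads over 4 Y-linked genes, where the other libraries had 1292 to 3277, and carotid body pool 2 held much fat RNA, with Adipoq at 338 RPKM against 2.73 to 79.8 in the others. Without these 2 libraries, Edn1 differed by 3.37, Edn3 by -4.76 and Ednra by 1.59, and the 3 genes remained called.

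The libraries of the 2 tissues held different main ligand transcripts. Edn1 was the main one in the carotid body libraries and Edn3 in the adrenal medulla libraries. Each was low where the other was high. The A receptor gene was higher in the carotid body, and the B receptor gene did not differ by the test. The converting enzyme genes were transcribed in both and did not pass the test. Levels are in RPKM, reads scaled to mRNA length and library size, which allows genes of different length to be compared. Log2 differences are carotid body minus adrenal medulla on the log2(RPKM + 1) scale, and genes with a limma p under 0.05, adjusted by Benjamini-Hochberg over all genes tested, were called. Of the 7 genes, 6 reached 1 RPKM in at least 3 libraries and were tested. Among these 6, 2 were called higher in the carotid body, 1 was called lower there, and 3 were not called. Over all 13357 genes tested, 21.9% were called, 14.2% as higher in the carotid body and 7.73% as higher in the adrenal medulla.

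Edn1, the precursor gene of endothelin-1, stood at 10.9, 10.7 and 11.6 RPKM in carotid body pools 1, 2 and 3. In adrenal medulla pools 1, 2 and 3 it stood at 0.318, 0.0598 and 0.208 RPKM, which rest on 10, 2 and 8 reads. All carotid body pools were high and close together, and the tissues did not overlap. The means were 11.1 ± 0.471 and 0.195 ± 0.129 RPKM (SD, n = 3 pools each), and the log2 difference was 3.34 ± 0.18 (SE, limma adjusted p = 1.35e-05). Because the adrenal level lies under the pseudocount of 1, that scale understates the distance. In reads per library read, Edn1 was 57.5 times higher in the carotid body, with a 95% exact interval of 37.0 to 94.4 that covers counting error only. In these whole-tissue libraries, fewer cells of a type and less RNA per cell cannot be told apart. Endothelial cells are the classic source of Edn1, and their markers moved with it. Of 13 endothelial markers, 9 were called higher in the carotid body and 4 were not called, and their summed level was 564 to 671 RPKM against 238 to 279. The median log2 difference of the 13 was 1.11. It ran from -0.05 for Emcn, an endothelial surface sialomucin, at 85.6 ± 8.06 against 91.5 ± 26.2 RPKM, to 4.26 for Cldn5, an endothelial tight junction gene, at 171 ± 49.9 against 8.86 ± 5.94 RPKM. Vwf and Pecam1 differed by 2.43 and 1.86. The part of endothelial content in the Edn1 difference was not tested.

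**Figure D1:**
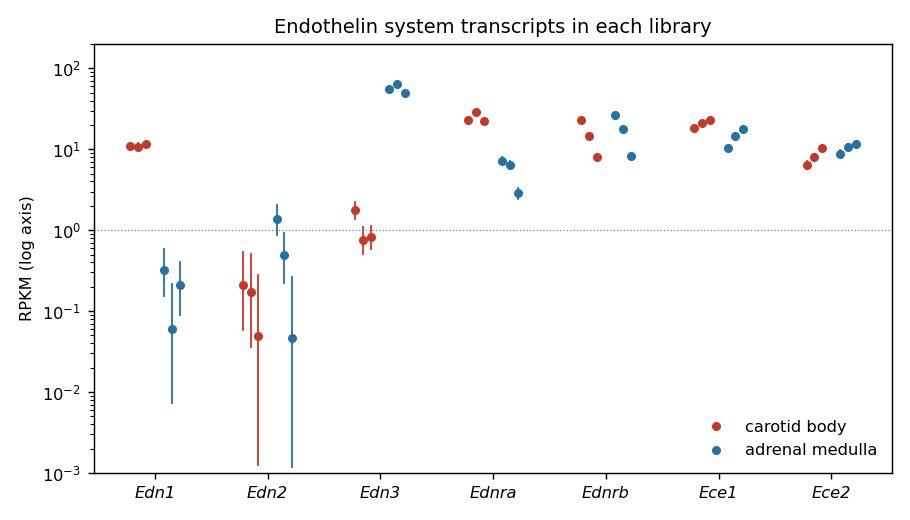
Level of each endothelin system gene in each library, in RPKM on a log axis, with pools 1 to 3 from left to right in each tissue and bars for the 95% Poisson interval of the read count. Edn1 lies above Edn3 in the carotid body and far below it in the adrenal medulla. Ednra lies higher in the carotid body, and Ednrb overlaps. The dotted line marks 1 RPKM.

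Edn3, the precursor gene of endothelin-3, showed the reverse. It stood at 1.76, 0.759 and 0.820 RPKM in carotid body pools 1, 2 and 3, from 76, 30 and 38 reads, and at 55.9, 63.9 and 49.8 RPKM in the adrenal medulla. The adrenal pools were all high and the tissues did not overlap. The means were 1.11 ± 0.561 and 56.5 ± 7.07 RPKM (SD, n = 3), and the log2 difference was -4.79 ± 0.25 (SE, limma adjusted p = 1.11e-05). Counted in reads, Edn3 was 50.4 times higher in the adrenal medulla (95% exact interval 42.7 to 59.8, counting error only). Carotid body pool 1, the highest of the 3 for Edn3, also held the most adrenal cortex transcripts. The median of 9 cortex markers was 1.05% of the adrenal medulla mean in that pool, against 0.385% and 0.131% in pools 2 and 3. Edn3 itself was at 3.11%, 1.34% and 1.45% of its adrenal mean. The cortex markers summed to 11367 to 14275 RPKM in the adrenal medulla libraries, so these held cortex RNA as well. Markers of chromaffin and glomus cells summed to 13191 to 25028 RPKM there, against 2314 to 3210 in the carotid body. Which of these cells carried Edn3 was not tested.

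Edn2, the precursor gene of endothelin-2, was scarce in both tissues and was left out of the test by its low level. It stood at 0.213, 0.174 and 0.0496 RPKM in the carotid body pools, from 4, 3 and 1 reads. In the adrenal medulla it stood at 1.38, 0.486 and 0.0469 RPKM, from 24, 9 and 1 reads. Adrenal medulla pool 1 was high and pool 3 was not, and the tissues overlapped. Markers of epithelium, where Edn2 is known to be made, summed to 1.23 to 1.56 RPKM in the carotid body, and 4.82 to 6.82 in adrenal medulla. Krt18 made up most of the adrenal sum, at 5.07 ± 1.01 RPKM against 0.805 ± 0.0451. Of the other 4 markers, all below the filter, Krt8 stood at 0.0533 RPKM in the carotid body pools against 0.601, Epcam at 0.393 against 0.170 and Tg at 0.131 against 0.00772, and Pth had 0 reads. The part of epithelium in the Edn2 levels was not tested. A noncoding gene overlaps Edn2 in the RefSeq table of GRCm38.p6, and whether the counting used strand is not given in the sources used here.

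As a share of the summed RPKM of the 3 ligands, Edn1 made up 84.7% to 93.0% in the carotid body, and 0.0928% to 0.551% in adrenal medulla. The Edn3 share was 6.50% to 13.7% and 97.1% to 99.5%. The summed ligand level was 11.7 to 12.9 RPKM in the carotid body, and 50.0 to 64.4 in adrenal medulla, without overlap.

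The balance of Edn1 to Edn3 was then compared library by library. Edn1 exceeded Edn3 by 6.19, 14.1 and 14.2 times in RPKM in carotid body pools 1, 2 and 3. Edn3 exceeded Edn1 by 176, 1069 and 240 times in adrenal medulla pools 1, 2 and 3, where the middle value rests on 2 reads of Edn1. Every carotid body pool was on the Edn1 side and every adrenal pool on the Edn3 side. With a pseudocount of 1, the mean log2 ratio of Edn1 to Edn3 was 2.55 ± 0.38 (SD, n = 3) for the carotid body and -5.59 ± 0.30 for the adrenal medulla. The difference of 8.13 had a two-sided exact permutation p of 0.1, the smallest that 3 libraries against 3 allow.

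**Figure D2:**
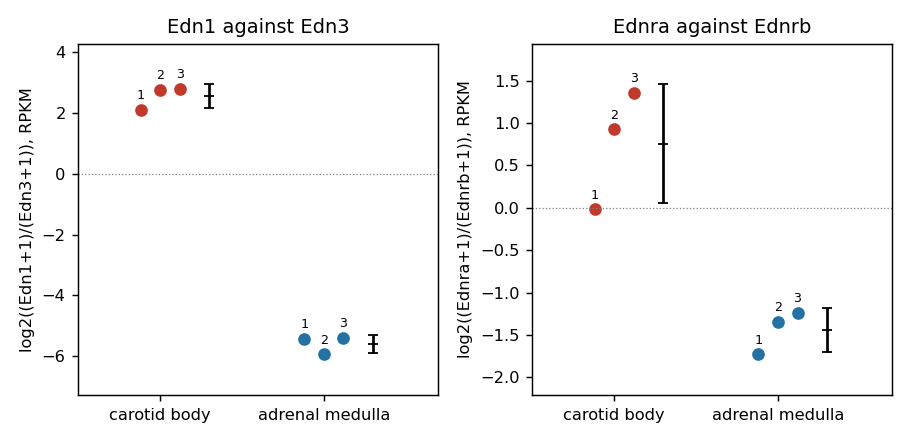
Log2 ratio of Edn1 to Edn3 (left) and of Ednra to Ednrb (right) in each library, from RPKM with a pseudocount of 1, numbered by pool, with black bars for the mean and SD of 3 pools. The ligand ratio changes side between the tissues in every pool, and the receptor ratio lies near or above 0 in the carotid body and below 0 in the adrenal medulla.

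Ednra, the A receptor gene, stood at 23.0, 28.9 and 22.1 RPKM in carotid body pools 1, 2 and 3 and at 7.23, 6.40 and 2.87 RPKM in the adrenal medulla pools. Adrenal medulla pool 3 was the lowest, and the tissues did not overlap. The means were 24.7 ± 3.72 and 5.50 ± 2.32 RPKM (SD, n = 3), with a log2 difference of 2.04 ± 0.31 (SE, limma adjusted p = 0.00174). Ednra had the highest mean of the 7 genes in the carotid body, but Ednrb exceeded it in pool 1 and Ece1 in pool 3. Of 11 smooth muscle and pericyte markers, 10 were called higher in the carotid body and 1, Des, was not called. Their summed level was 2558 to 3087 RPKM against 116 to 118. Rgs5 alone made up most of the carotid body sum, at 1669 ± 177 against 29.5 ± 7.12 RPKM. The contractile genes Acta2 and Myh11 differed by 4.72 and 3.98, whereas the pericyte channel genes Kcnj8 and Abcc9 differed by 1.29 and 1.33. Fibroblast markers were also higher in the carotid body, with 8 of 8 called and a sum of 2249 to 2964 RPKM against 68.1 to 179. The parts of vessel wall and of fibroblast content in the Ednra difference were not tested. In the RefSeq table, 3 noncoding genes overlap Ednra.

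Ednrb, the B receptor gene, stood at 23.3, 14.8 and 8.03 RPKM in carotid body pools 1, 2 and 3, from 1418, 821 and 524 reads. In adrenal medulla pools 1, 2 and 3 it stood at 26.3, 17.8 and 8.14 RPKM, from 1480, 1063 and 561 reads. Pool 1 was high and pool 3 low in either tissue, and the tissues overlapped. The means were 15.4 ± 7.66 and 17.4 ± 9.08 RPKM (SD, n = 3). The log2 difference was -0.14 ± 0.47 (SE, limma adjusted p = 0.882), with a 95% interval of -1.21 to 0.92. With the pool number as a block the interval narrowed to -0.57 to 0.28 (adjusted p = 0.603). Both intervals leave out a difference of the size seen for Ednra. The unblocked value turned to 0.23 when carotid body pool 3 was left out, and to 0.21 when adrenal medulla pool 1 was. Glial markers, 9 of 9 tested, were called higher in the carotid body, with a sum of 396 to 565 RPKM against 50.7 to 75.0. Endothelial markers were also higher there, as given above, and Ednrb is known from both cell types. A noncoding gene overlaps Ednrb in the RefSeq table.

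The balance of the receptors was compared in the same way. Ednra made up 49.7% to 73.3% of the summed receptor RPKM in the carotid body, and 21.6% to 26.5% in adrenal medulla. The ratio of Ednra to Ednrb was 0.987, 1.96 and 2.75 in carotid body pools 1, 2 and 3, so pool 1 had about equal levels and the others an excess of Ednra. In adrenal medulla pools 1, 2 and 3, Ednrb exceeded Ednra by 3.63, 2.77 and 2.84 times. The mean log2 ratio with a pseudocount of 1 was 0.75 ± 0.70 against -1.44 ± 0.26 (SD, n = 3). The difference of 2.19 had a two-sided exact permutation p of 0.1, again the smallest possible. Of the 2 receptor genes, Ednra was called and Ednrb was not.

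The converting enzyme genes were transcribed in both tissues. Ece1, the main enzyme that turns big endothelin into the active peptide, stood at 18.2, 20.8 and 22.9 RPKM in carotid body pools 1, 2 and 3 and at 10.2, 14.6 and 17.8 RPKM in the adrenal medulla pools. The lowest carotid body pool lay just above the highest adrenal pool. In the RefSeq table, 2 noncoding genes overlap Ece1. The log2 difference of 0.53 ± 0.25 (SE) did not pass the test (limma adjusted p = 0.180), with a 95% interval of -0.03 to 1.10. With the pool number as a block that interval was 0.09 to 0.98, at an adjusted p of 0.0784. Libraries of the tissues did not overlap for 4 of the 6 tested genes, and for 37.0% of all genes tested.

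Ece2, the related enzyme of acidic vesicles in neurons and endocrine cells, stood at 6.34, 7.94 and 10.2 RPKM in the carotid body pools and at 8.86, 10.6 and 11.6 RPKM in the adrenal medulla pools. The tissues overlapped, and the log2 difference was -0.32 ± 0.24 (SE, limma adjusted p = 0.411). This entry joins 5 accessions, of which RefSeq gives 2 to Ece2 alone, 2 to its readthrough with the methyltransferase gene Eef1akmt4 and 1 to Eef1akmt4 itself. Reads of the peptidase and the methyltransferase therefore cannot be separated. Summed, Ece1 and Ece2 were at 24.5 to 33.1 RPKM in the carotid body, and 19.1 to 29.4 in adrenal medulla.

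Within the carotid body, the mean RPKM fell in the order Ednra, Ece1, Ednrb, Edn1, Ece2, Edn3 and Edn2. The ranges of the first 4 overlapped from each gene to the next, and the later steps, from Edn1 to Ece2, to Edn3 and to Edn2, did not overlap. In the adrenal medulla the order was Edn3, Ednrb, Ece1, Ece2, Ednra, Edn2 and Edn1. There Edn3 lay above the rest in every pool, Ednrb overlapped Ece1, Ece1 overlapped Ece2, and Edn2 overlapped Edn1. Among all entries with a length, the mean of Edn3 lay at percentile 93.1 in the adrenal medulla and 45.1 in the carotid body. The mean of Edn1 lay at 76.1 in the carotid body, and 34.4 in adrenal medulla.

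Ednrb and both converting enzyme genes varied with the pool number in the same way in both tissues. Ednrb was highest in pool 1 and lowest in pool 3 of either tissue, an order shared by 8.06% of the genes tested. Ece1 and Ece2 were lowest in pool 1 and highest in pool 3 of either tissue, an order shared by 9.34%. Within same-numbered pools, Ednrb in the carotid body was 0.887, 0.831 and 0.987 times its adrenal level. Its log2 change from pool 1 to pool 3 was -1.43 in the carotid body, and -1.58 in adrenal medulla, at percentiles 0.292 and 1.52 of all genes tested.

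**Figure D3:**
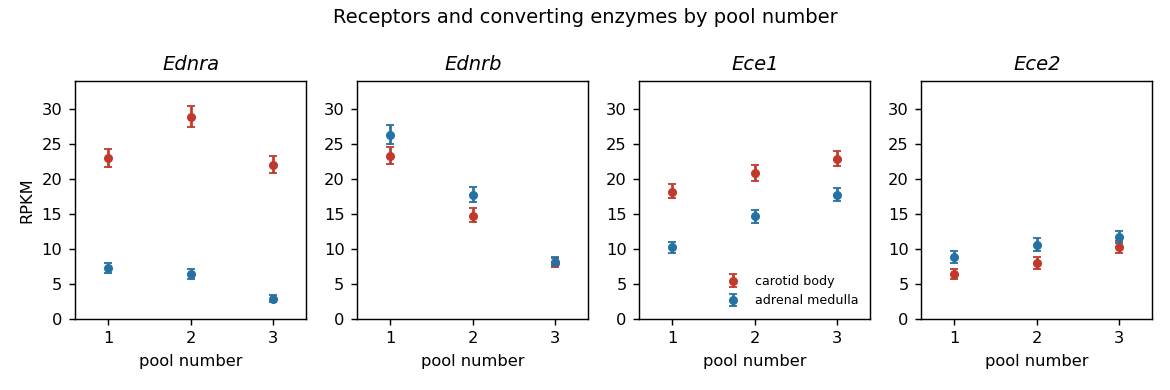
RPKM of the receptor and converting enzyme genes by pool number, carotid body in red and adrenal medulla in blue, with bars for the 95% Poisson interval of the read count. Same-numbered pools lie close for Ednrb, which spans 23.3 to 8.03 RPKM in the carotid body, and Ece1 and Ece2 have their highest level in pool 3 of both tissues.

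The GC content of the transcripts moved with the same pool difference. Among 12654 genes with a GC value, 94.7% of those tested, the correlation across genes of GC with the log2 change from pool 1 to pool 3 was 0.378 in the carotid body, and 0.640 in adrenal medulla, where genes share the libraries and are not independent. The median GC was 46.9% for genes in the order of Ednrb and 56.8% for genes in the order of Ece1. Ednrb had 43.9% GC, Ece1 54.8% and Ece2 50.7%. Among 2161 genes within 2 points of its GC, Ednrb lay at percentile 0.416 in the carotid body, and 2.13 in adrenal medulla. Among genes of like GC, Ece1 lay at percentiles 62.2 and 82.2 and Ece2 at 93.2 and 83.5. The part of GC in these pool orders was not tested.

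The genes with the most similar pattern to 4 of the members were read from the Pearson correlation of log2(RPKM + 1) over the 6 libraries, among 6714 other genes whose mean reached 10 RPKM in either tissue. For Edn1 these were Pgf, a vascular growth factor, at 0.999, Mustn1 at 0.999, Farp1 at 0.998 and the activin subunit gene Inhba at 0.998. For Edn3 they were Scgn, a calcium-binding protein of endocrine cells, at 0.999, and Mgarp, Fdx1 and Hoxb9 at 0.998 each. Fdx1 is also 1 of the 9 adrenal cortex markers, at 71.9 against 2040 RPKM. For Ednra the most similar genes were Igfbp5 at 1.00, with Filip1l, the complement gene C1s and Fibin at 0.999 each. Such values were common, and 492 genes exceeded 0.95 with Edn1, 227 with Edn3 and 347 with Ednra. For Ednrb the 4 were Magt1, Mitd1, Brcc3 and Alkbh5, at 0.983 to 0.986, and 34 genes exceeded 0.95. Magt1 shared its order of pools, at 38.5, 30.6 and 22.9 RPKM in the carotid body and 45.2, 35.9 and 24.7 in the adrenal medulla.

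Genes that act before and after the receptors were counted next. Of 70 genes in 9 lists, 64 were tested, 20 were called higher in the carotid body, 3 lower there, and 41 were not called. Their median log2 difference was 0.28, beside 0.02 over all genes tested, and the shares called over all genes were the 14.2% and 7.73% given above. The counts were 21 and 10 with the fat-rich carotid body pool 2 and the Y-poor adrenal medulla pool 3 left out, where 14.4% and 15.5% of all genes were called. The adrenal count was 8 without adrenal medulla pool 3 alone, beside 11.0% of all genes, and 6 with the pool number as a block, beside 10.2%.

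Convertases act first on the precursors. Among 4 proprotein convertases (median 0.07), Furin, the convertase best known for cutting endothelin precursors, was at 2.77 ± 0.168 and 3.17 ± 0.367 RPKM and was not called. Pcsk6 was higher in the carotid body, at 11.0, 14.7 and 10.4 RPKM in the carotid body pools against 2.55, 1.87 and 0.962 (log2 2.25, adjusted p = 5.24e-04). Pcsk5 was higher in the adrenal medulla, at 2.39, 2.34 and 2.16 against 25.7, 13.5 and 9.76 RPKM (log2 -2.29, adjusted p = 0.00124).

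Peptidases other than the converting enzymes numbered 7, of which 5 were tested, with a median of 0.42. Cma1 and Mcpt4, genes of the mast cell chymase family, some members of which can cut big endothelin-1, were higher in the carotid body by 5.02 and 5.20. Mcpt4 stood at 42.8, 33.8 and 57.1 RPKM in the carotid body pools against 0.301, 0.212 and 0.123. Both genes are also on the mast cell marker list, whose 5 tested members were all called higher there and whose sum was 172 to 232 RPKM against 2.96 to 10.2. The list also holds Hdc, which was below the filter and went the other way, at 1.16 ± 0.351 against 2.83 ± 3.64 RPKM. Hdc made up 7.02 RPKM of the sum in adrenal medulla pool 3. Mmel1, a neprilysin-like peptidase gene, was higher in the adrenal medulla (log2 -1.62), at 1.49, 1.52 and 3.84 RPKM from 309 reads, against 2 reads over the carotid body pools. Kel, whose product can process big endothelin-3, had 3 and 1 reads over the pools of the 2 tissues. Mme, the endothelin-degrading neprilysin, was below the filter at 0.661 ± 0.813 and 0.275 ± 0.299 RPKM.

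Signalling genes below the receptors were called at shares near the 21.9% of all genes. Of 8 G protein subunit genes (median 0.17), 2 were called, and of 10 tested genes for phospholipase C, IP3 receptors and protein kinase C (median 0.30), 2 were. Gnaq and Gna11, the usual partners of the A receptor, were not called, at 34.2 ± 7.37 against 33.2 ± 9.77 RPKM and 60.3 ± 14.5 against 50.5 ± 17.8. Gnai2 and Gnas were called higher in the carotid body, by 0.88 and 0.84 (adjusted p = 0.0387 and 0.0419). The call of Gnas ended with the pool number as a block (0.0573), with no filter (0.0804), under median-ratio (0.114) or quantile scaling (0.0548), and when carotid body pool 1 (0.0955), carotid body pool 3 (0.160) or any adrenal pool was left out (0.137, 0.142 and 0.0634 for pools 1, 2 and 3). That of Gnai2 ended under median-ratio scaling (0.0736), without carotid body pool 1 (0.0920), 2 (0.106) or 3 (0.0891) and without adrenal medulla pool 1 (0.127) or 2 (0.0796). Of the second group, Prkca (2.65) and Itpr3 (1.07) were called higher in the carotid body. Prkca encodes a classical protein kinase C, and it stood at 16.9, 13.6 and 12.9 RPKM against 2.05, 1.60 and 0.870. Plcb1, Prkcb and Prkcd differed by -1.16, -0.91 and -0.91 and narrowly missed the threshold (adjusted p = 0.0527, 0.0528 and 0.0734), and with the pool number as a block they passed it as higher in the adrenal medulla (0.0128, 0.0434 and 0.0379). Plcb1 and Prkcb also passed under median-ratio scaling (0.0276 and 0.0210), quantile scaling (0.0207 and 0.0177), limma-voom on recovered reads (0.0469 each) and without adrenal medulla pool 3 (0.00718 and 0.00295). Prkcd also passed without adrenal medulla pool 1 (0.0227).

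Mylk, the kinase of smooth muscle myosin, was higher in the carotid body at 42.0, 33.3 and 27.0 RPKM against 7.63, 8.29 and 7.46 (log2 1.98, adjusted p = 3.92e-04). Smooth muscle markers were higher in the same libraries, as given above. Ppp1r12a was called at 0.88 (adjusted p = 0.0495), and the call ended in 11 of 16 alternative settings, with an adjusted p of up to 0.153 without carotid body pool 1. Of 6 receptor kinases and arrestins (median 0.14), Arrb1, an arrestin that ends receptor signalling, was called higher in the carotid body by 1.05 (adjusted p = 0.0188). That call ended without pool 1 (0.0729) or pool 3 (0.0745) of the carotid body, and without pool 1 (0.0615) or pool 2 (0.0755) of the adrenal medulla. Adrbk1, the kinase GRK2, was not called, and passed only with the pool number as a block (0.67, adjusted p = 0.0329).

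Of 10 tested transcription factor genes known to act on the Edn1 promoter (median 0.61), 5 were called higher in the carotid body. These were Epas1 (3.41), the hypoxia-inducible factor HIF-2alpha, the endothelial flow-response factors Klf4 (2.37) and Klf2 (1.80), Fos (1.41) and Foxo1 (1.04). The other hypoxia-inducible factor genes of the list, Hif1a and Arnt, were among the 4 not called. Hif1a stood at 10.6 ± 4.65 against 11.1 ± 6.08 RPKM, and Arnt at 5.56 ± 1.11 against 5.58 ± 0.879. Klf2 stood at 49.6, 49.2 and 67.5 RPKM in the carotid body pools against 10.9, 18.3 and 16.7, in libraries where endothelial markers were also higher. Gata2, an activator of Edn1 in endothelium, went the other way, at 8.14, 7.29 and 6.98 RPKM against 36.1, 40.9 and 30.5 (log2 -2.11, adjusted p = 1.74e-04). In those adrenal libraries Edn1 was at most 0.318 RPKM. Which cells carried Gata2 was not tested, nor was a link of its level to that of Edn1.

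Of 6 tested vasodilator genes that act downstream of the B receptor (median 0.26), Nos3, the endothelial nitric oxide synthase, was the 1 called, at 6.48, 6.70 and 6.39 RPKM in the carotid body against 1.11, 1.66 and 2.97 (log2 1.42, adjusted p = 0.00423). The other 5 were not called. Endothelial markers were higher in the same libraries, as given above.

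Of 7 tested neural crest genes linked to Edn3 and Ednrb (median 0.98), Sox10 (2.98), Gdnf (2.21), Zeb2 (1.53) and Gfra1 (0.98) were called higher in the carotid body and 0 were called higher in the adrenal medulla. Sox10, the glial and crest factor that activates Ednrb, stood at 25.4, 17.5 and 27.7 RPKM against 2.03, 2.09 and 2.04, so it did not share the pool order of Ednrb. Sox10 is also on the glial marker list, whose 9 tested members were all called higher in the carotid body (median 2.76). The part of glial content in these differences was not tested. Gdnf, a ligand for the receptor kinase Ret, had 579 reads over the carotid body pools and 6 over the adrenal medulla pools.

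**Figure D4:**
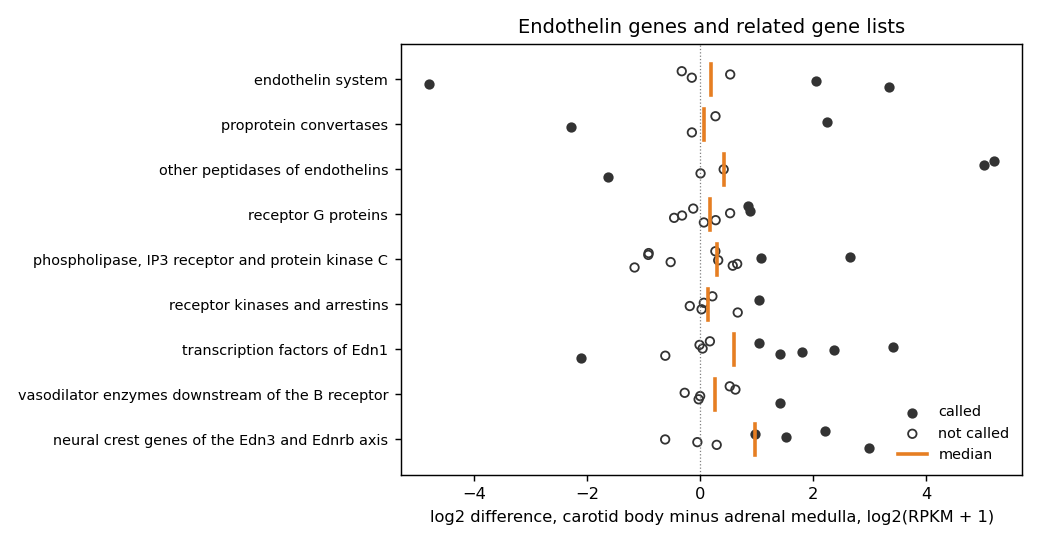
Log2 difference, carotid body minus adrenal medulla, of each tested gene of the endothelin system and of related lists, with filled points for genes called by limma and orange lines for the median of a list. Edn3 at -4.79 is the lowest point and the chymase genes at 5.02 and 5.20 are the highest.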

How the data were processed

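RNA of 3 carotid body and 3 adrenal medulla pools was amplified from total RNA, fragmented and sequenced, per the labels' protocols. Reads were aligned with Bowtie 0.9.8 to mm9, per the submitters' processing notes; how reads were counted is not given in the sources used here. The authors deposited RPKM values with the mRNA length in kb. RPKM times length gave whole reads, within 0.01, for 106276 of 106276 values above 0. The 3217 entries without a length hold raw reads and were left out.

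limma 3.58.1 in R 4.3.3 was run on log2(RPKM + 1) with a variance trend over the 13357 genes with 1 RPKM in at least 3 libraries. The same fit was also run on simulated reads whose means came from these libraries, and no result here rests on that run. Ligand and receptor ratios were compared by exact permutation over libraries. Python 3.11.15 and pandas 2.3.3 were used for the other steps. GC content came from the longest coding GENCODE transcript per gene. Always named were the 7 members and, per list, up to 4 called genes with the largest difference, plus 10 genes fixed by role. Marker genes, Fos, Foxo1, Hif1a, Arnt, Plcb1, Prkcb, Prkcd and Adrbk1 were chosen after their values were seen. The counts of 1 of the 9 lists and 1 gene of another are not reported here. Members, lists and the doubted libraries were chosen with earlier results of these data known.

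The titles number the pools of both tissues 1 to 3. Deviations from the tissue means correlated at 0.259, 0.128 and 0.473 in same-numbered pools. The main tests did not use the numbers as pairs, and the block by pool number was an alternative. Carotid body pool 2 correlated more with adrenal medulla pool 1 (0.291) than with pool 2. The Y-linked reads of the pools numbered 3, 1292 and 7, differed.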

Additional observations from a re-analysis of the deposited data

How the results depend on the processing

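Across 16 alternatives each (pseudocount, filter, scaling, variance trend, replicate block, limma-voom on recovered reads, and left-out libraries), Edn1 (log2 difference 3.26 to 5.98), Edn3 (-5.75 to -4.68) and Ednra (1.59 to 2.27) kept their direction and their calls, and Ece1 (0.33 to 0.70), Ece2 (-0.48 to -0.17) and Ednrb (-0.61 to 0.23) were called in none. Of these alternatives, the filter, the variance trend and the block cannot move a log2 difference and bear only on its p-value. Ednrb ranged from -0.58 to 0.23 when 1 library was left out. Gnaq, 0.07 with all libraries, turned to -0.0080 under median-ratio scaling, -0.10 with the fat-rich carotid library left out, -0.19 with the Y-poor adrenal library left out and -0.36 with both left out. Edn2 differed by -0.44 with no filter (limma adjusted p = 0.351).

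Pairing by pool number cannot move the ligand balance of 8.13 or the receptor balance of 2.19, because the design is balanced. The exact p over pairs was 0.25 for both, the smallest that 3 pairs allow. The replicate block changed no call among the 7 genes. The ligand balance was 11.0, 9.27 and 11.9 at pseudocounts of 0.1, 0.5 and none, and 7.96 to 8.35 without 1 library; the receptor balance was 2.39, 2.29 and 2.42, and 1.89 to 2.58. With the fat-rich and the Y-poor library both left out, 2067 genes were called higher in the adrenal medulla instead of 1033; the cause was not tested. The counts of genes called were 1460 to 1999 and 692 to 1464 without 1 library.

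Depth limits Edn2 and the adrenal level of Edn1, which rest on 1 to 24 reads per library. With 3 libraries against 3, an exact test cannot go below 0.1.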
